A study of Homo sapiens with 2 samples.

Results

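Aminoacyl-tRNA synthetases join each amino acid to its tRNA, the step that fixes the genetic code before a charged tRNA reaches the ribosome. Animal cells keep a cytosolic set and a mitochondrial set, nearly all encoded by separate nuclear genes, and several cytosolic enzymes sit in a multi-synthetase complex held together by the scaffold proteins AIMP1 and AIMP2. When amino acids run short, uncharged tRNA activates the kinase GCN2, and the transcription factor ATF4 then raises genes of amino acid supply, many cytosolic synthetases among them. The genes described here are 37 named members, chosen by symbol and not by their values: 19 cytosolic enzymes, 16 mitochondrial enzymes and the 2 scaffold proteins, out of 63677 gene IDs counted.

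RNA sequencing gave their mRNA levels in MDA-MB-231, an established human triple-negative breast cancer line. One library came from cells treated with Carpesium cernuum extract (CCE), a plant extract, at 1 µg/mL for 24 h. The other came from cells labelled as control; the same dose text stands on that sample too, so the groups follow the treatment label alone, and the sources used here do not say what was given to control cells. The CCE library held 34884501 counts on genes and the control library 5633569. Levels are TMM-scaled counts relative to library size (CPM), where 1 count was worth 0.0283 CPM in the CCE library and 0.180 CPM in the control library. With 1 library per group no test was possible: each log2 ratio, CCE over control, has an exact 95% Clopper-Pearson interval that covers counting error only, not the spread between cultures. All differences below are between these 2 libraries, which no label ties to separate cultures or repeats. In such bulk RNA, fewer cells of a kind and less RNA per cell cannot be told apart.

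The labelled line was checked against markers. VIM, CD44, EGFR, AXL and CAV1, which this mesenchymal-like line is known to express, all were abundant, the lowest being CAV1 at 158 CPM in the CCE library and 339 CPM in the control library. ESR1 and ALB had 0 counts in each library, which allows up to 0.0849 CPM in the CCE library and 0.540 CPM in the control library. PGR had 6 counts in the CCE library and 0 in the control library, CDH1 1 and 0, the leukocyte gene PTPRC 11 and 2, and EPCAM 265 and 56. Whether the marker differences bear on the synthetase ratios was not tested. Of these markers VIM, AXL and CAV1 passed the 1.5-fold rule downwards in the CCE library (log2 ratios -1.05, -0.95 and -1.10).

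Promoter letters are shown first, because many cytosolic enzyme genes are known ATF4 targets and 7 of the 16 with a window carry the same motif near their start. ATF4 pairs with C/EBP proteins on composite elements, searched here as TGATGNAA on both strands. The windows run from 250 bases before each RefSeq start to 50 after it (GRCh38.p14, RefSeq), and 32 of the 37 members have one; LARS1, VARS1, YARS1, AARS2 and VARS2 do not. The motif was found in 7 of 16 cytosolic enzymes, 1 of 14 mitochondrial enzymes and 0 of 2 scaffold genes, against 3.60% of 15843 protein-coding genes with a window. In 6 of the 7 cytosolic matches the letters were TGATGCAA on one strand or the other, which stood in 0.903% of those protein-coding genes. A match is only these letters in this window, and says nothing of binding in these cells.

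The sites below are given 5′ to 3′ on each gene's own strand, with the match in capitals. ASNS, the asparagine synthetase gene and a well-known ATF4 target, is shown for comparison, and YARS2 is the single mitochondrial match. ASNS was picked as a gene with a match. Of the 16 uncharged-tRNA sensing and ATF4 target genes listed below that have a window, 3 had the motif. In 1 of the 16 the letters were TGATGCAA on one strand or the other. Windows of genes with more than 1 RefSeq start are those that hold the match.
AARS1: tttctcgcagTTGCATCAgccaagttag
CARS1: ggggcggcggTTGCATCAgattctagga
GARS1: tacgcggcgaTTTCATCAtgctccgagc
IARS1: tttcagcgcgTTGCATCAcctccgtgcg
MARS1: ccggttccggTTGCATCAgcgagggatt
NARS1: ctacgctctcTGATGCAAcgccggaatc
TARS1: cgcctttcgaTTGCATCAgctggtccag
YARS2: tccacactgcTGATGGAAaaattaagtt
ASNS: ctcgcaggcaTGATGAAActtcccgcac

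The matches of CARS1, IARS1, MARS1, NARS1 and TARS1 lay close to the RefSeq start. Their first letter was 2 bases before the start in CARS1, 4 in MARS1 and 13 in IARS1, and 2 bases after it in TARS1 and 14 in NARS1. GARS1 had its match 33 bases before the start, AARS1 187 bases before it and YARS2 197. All 7 cytosolic matches fell among the 10 enzymes with a window that are reported to respond to ATF4 in mammalian cells (AARS1, CARS1, EPRS1, GARS1, IARS1, LARS1, MARS1, NARS1, SARS1, TARS1, WARS1 and YARS1, of which LARS1 and YARS1 had no window). None fell among the 6 others with a window (FARSA, FARSB, HARS1, KARS1, QARS1 and RARS1).

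A pair of whole windows is shown, for IARS1, which has the motif, and EPRS1, which has no full match. Near its end the EPRS1 window holds ttgcatct, which differs from the marked IARS1 letters only in the last letter. How often such near matches occur was not counted. IARS1 is the cytosolic enzyme gene with most counts, though not the highest level per kilobase. EPRS1 has the highest ratio by counts among cytosolic enzymes. The IARS1 window is chr9:92293648-92293947 and the EPRS1 window chr1:220046456-220046755, both on the minus strand.
IARS1: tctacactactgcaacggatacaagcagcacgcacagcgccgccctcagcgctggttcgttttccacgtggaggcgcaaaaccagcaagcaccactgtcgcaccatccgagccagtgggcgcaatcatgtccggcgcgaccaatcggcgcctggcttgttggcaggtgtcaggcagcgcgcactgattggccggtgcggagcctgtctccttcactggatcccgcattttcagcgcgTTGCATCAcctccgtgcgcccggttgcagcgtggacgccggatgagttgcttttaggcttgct
EPRS1: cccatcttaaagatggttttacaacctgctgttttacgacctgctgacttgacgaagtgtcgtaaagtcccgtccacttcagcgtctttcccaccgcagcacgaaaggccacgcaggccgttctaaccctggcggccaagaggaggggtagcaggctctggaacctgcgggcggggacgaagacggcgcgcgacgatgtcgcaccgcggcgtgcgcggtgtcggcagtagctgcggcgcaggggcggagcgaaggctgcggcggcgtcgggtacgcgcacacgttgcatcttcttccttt

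Ratios of enzymes with and without the motif overlapped. The 7 cytosolic enzymes with it had log2 ratios of -0.01 to 0.38, with a median of 0.22, and 0 of them reached 1.5-fold. The 9 with a window and no match had -0.04 to 0.68, with a median of 0.22, and 1 of them, EPRS1, reached 1.5-fold. Of the measured protein-coding genes described below, 11.5% were called at least 1.5-fold higher.

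Most synthetase genes stood slightly higher in the CCE library, and few by much. Of the 36 members measured (a mean of at least 1 CPM), 29 had a log2 ratio above 0, against 54.4% of 11637 measured protein-coding genes. The median member was at 0.32, and the median of all measured protein-coding genes at 0.05. A call needed a ratio of at least 1.5-fold and an interval that excluded 1. EPRS1, LARS1, VARS2, EARS2, RARS2 and LARS2 were called higher, 6 of 36 members, against 11.5% of protein-coding genes. WARS2 was called lower, 1 of 36, against 10.9%. At 2-fold, 0 members were called in either direction, against 3.26% of protein-coding genes higher and 4.33% lower.

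Most members are abundant, so they were also set beside genes of like depth. Of the 32 members with a mean of at least 20 CPM, 27 had a log2 ratio above 0, against 56.5% of 7303 protein-coding genes at that level. At least 1.5-fold higher were 6, against 9.17%, and at least 1.5-fold lower 0, against 7.68%. The interval lay wholly above 1 in 23 of the 32, against 39.7%, and wholly below 1 in 2, against 29.5%.

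The authors' FPKM values gave a more even split. By summed FPKM with a pseudocount of 1, 18 of the 36 members lay above 0, against 42.5% of measured protein-coding genes, and 19 had the same sign as by counts. At least 1.5-fold higher by FPKM were 7 members, against 21.5% of those genes, and 5 were at least 1.5-fold lower, against 25.8%. Across the 11637 genes both measures had a Spearman correlation of 0.33, over genes that share the same 2 libraries. GC content also moved with the ratios: genes with exons of at most 40% GC had a median log2 ratio of 0.19 (2041 genes) and those above 55% GC one of -0.11 (3139 genes). With that trend taken off, 26 of 36 members lay above 0, against 50.2% of measured protein-coding genes. VARS2 and EARS2, 2 of 36, were then called higher, against 9.1%, and WARS2 and NARS2, also 2, lower, against 11.6%.

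**Figure D1:**
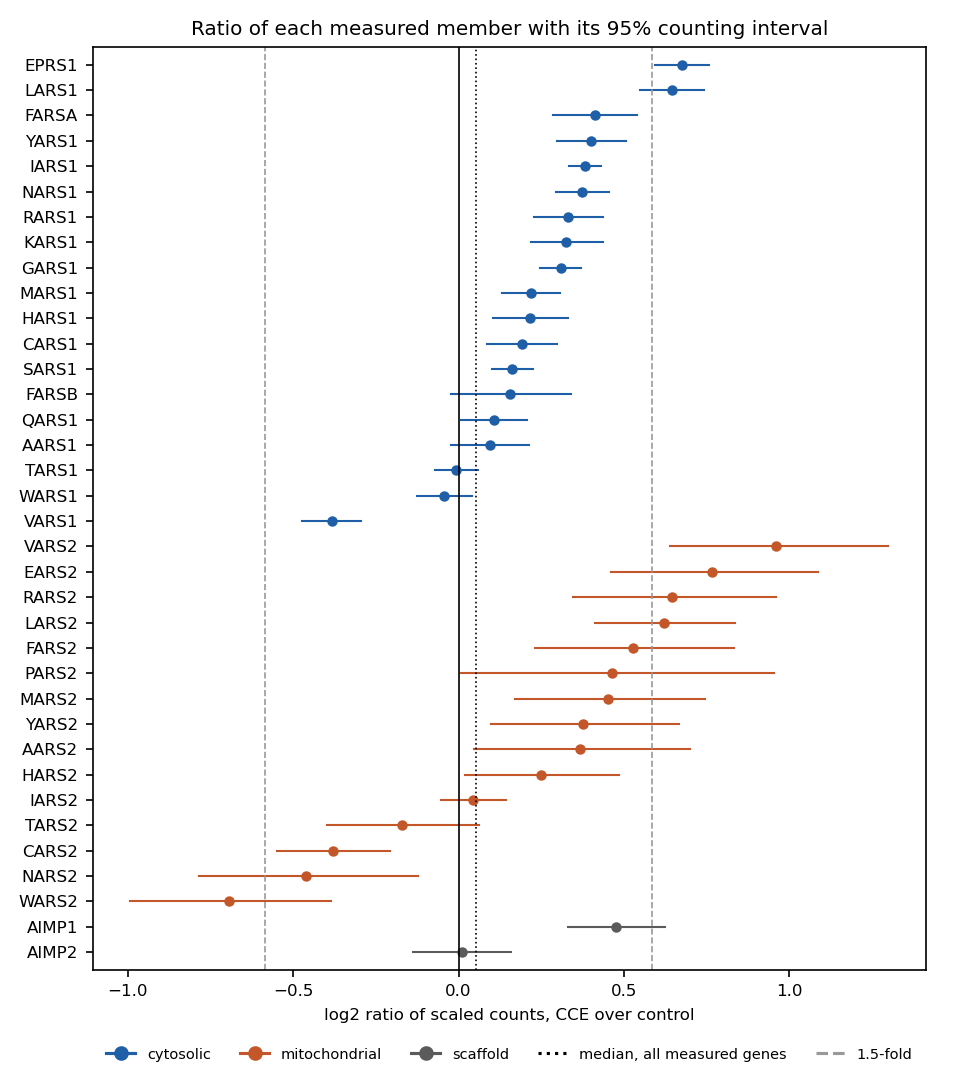
Ratios on the log2 scale (x axis, CCE over control) of the 36 measured members, with 95% counting intervals (1 library per group). 29 points lie right of 0; EPRS1, LARS1, VARS2, EARS2, RARS2 and LARS2 lie right of the 1.5-fold line, and WARS2 left of it.

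Among the cytosolic enzymes, 16 of 19 had a log2 ratio above 0 and 14 an interval wholly above 1, and the median was 0.22. All 19 have a mean of at least 20 CPM. Of protein-coding genes at that level, 56.5% had a log2 ratio above 0 and 39.7% an interval wholly above 1. The complex enzymes EPRS1 and LARS1 led by counts. EPRS1, which charges both glutamate and proline tRNAs in a single protein, had 13927 counts (394 CPM) in the CCE library, against 1372 counts (247 CPM) in the control library. It was 1.60-fold higher (1.51 to 1.69), at the 90.3 percentile of all measured protein-coding genes. The leucine enzyme gene LARS1, whose protein also serves as a leucine sensor for mTORC1, had 9457 counts (268 CPM) in the CCE library and 951 counts (171 CPM) in the control library, 1.56-fold higher (1.46 to 1.67). By FPKM these 2 were also above 0, at 0.41 and 0.20, but CARS1 was the highest cytosolic enzyme, at 0.78. With the GC trend removed EPRS1 and LARS1 had 0.53 and 0.47, short of 1.5-fold, and FARSA was highest, at 0.55.

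A middle group of cytosolic enzymes had log2 ratios from 0.31 to 0.41, with intervals above 0. In it were FARSA, the catalytic subunit of the phenylalanine enzyme (0.41, 0.29 to 0.54), the tyrosine gene YARS1 (0.40, 0.30 to 0.51) and the isoleucine gene IARS1 (0.38, 0.33 to 0.43). The asparagine gene NARS1 had 0.37 (0.29 to 0.45), the arginine gene RARS1 0.33 (0.23 to 0.44), and KARS1 and GARS1, whose proteins charge tRNA in the cytosol and in mitochondria, 0.33 (0.22 to 0.44) and 0.31 (0.25 to 0.37). IARS1 was the member with most counts, 31732 in the CCE library and 3830 in the control library. FARSA went the other way by FPKM, at -1.87, and NARS1 and KARS1 were slightly below 0, at -0.11 and -0.03. FARSB, the other phenylalanine subunit, had a log2 ratio of 0.16 (-0.02 to 0.34) by counts and 0.34 by FPKM. The counting intervals of both subunits overlap, and their order is opposite by FPKM.

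Apart from VARS1, the remaining cytosolic enzymes had log2 ratios from -0.04 to 0.22. MARS1 and HARS1, for methionine and histidine, had 0.22 each (0.13 to 0.31 and 0.10 to 0.33), the cysteine gene CARS1 0.19 (0.09 to 0.30) and the serine gene SARS1 0.16 (0.10 to 0.22). The glutamine gene QARS1 had 0.11 (0.01 to 0.21) and the alanine gene AARS1 0.10 (-0.02 to 0.21). The threonine gene TARS1 was at 387 CPM in the CCE library and 388 CPM in the control library, and WARS1, the tryptophan gene that interferon-gamma is known to raise, at 239 and 246 CPM. Their log2 ratios of -0.01 (-0.07 to 0.06) and -0.04 (-0.13 to 0.04) were within counting error of 0.

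VARS1, the valine enzyme gene, was the single cytosolic member with an interval below 0. It had 5964 counts (169 CPM) in the CCE library and 1224 counts (220.1 CPM) in the control library, a log2 ratio of -0.38 (-0.47 to -0.29), which is short of 1.5-fold. By FPKM it was lower as well, at 6.17 FPKM in the CCE library and 12.1 FPKM in the control library. It lies on chromosome 6 from 31745295 to 31763529 (GRCh37), and its exons share no bases with another counted gene.

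**Figure D2:**
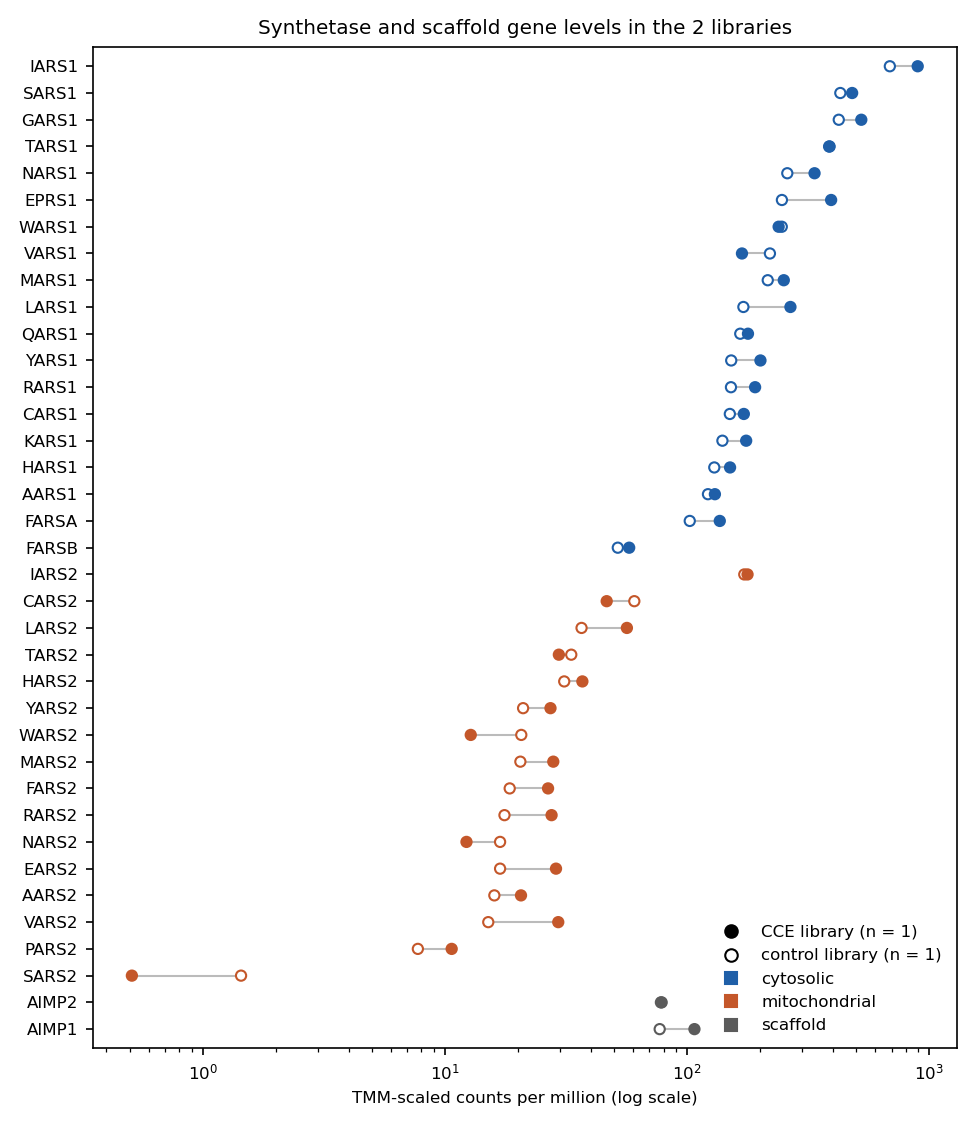
TMM-scaled CPM (x axis, log scale) of all 37 members in the CCE library (filled) and the control library (open), 1 library each, ordered within each group by the control level. Cytosolic enzymes sit above most mitochondrial ones, and in most members the filled point lies right of the open one.

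Mitochondrial enzymes were spread more widely. Of 16 genes 15 were measured; 11 had a log2 ratio above 0, 10 an interval above 0 and 3 an interval below 0, and the median was 0.38. These genes had 43 to 959 control counts, against 288 to 3830 for the cytosolic enzymes, so their intervals are wider. By the 1.5-fold rule 4 were called higher and 1 lower. Across all measured protein-coding genes, 54.4% had a log2 ratio above 0, 11.5% were called higher and 10.9% lower. Interval shares were counted only for protein-coding genes at 20 CPM or more, with 39.7% above 0 and 29.5% below. That level was reached by 11 of the 15 measured mitochondrial enzymes. VARS2, the mitochondrial valine enzyme gene, on chromosome 6 from 30881982 to 30894236, was the highest member. It had 1039 counts (29.4 CPM) in the CCE library and 84 counts (15.1 CPM) in the control library, 1.95-fold higher (1.56 to 2.46), at the 96.0 percentile. By FPKM it had 3.72 in the CCE library and 0.249 in the control library.

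The other mitochondrial members called higher charge glutamate, arginine and leucine tRNAs. EARS2 had 1017 counts (28.8 CPM) in the CCE library and 94 (16.9 CPM) in the control library, 1.70-fold higher (1.38 to 2.13). RARS2 had 975 counts (27.6 CPM) against 98 in the control library (17.6 CPM), 1.57-fold higher (1.27 to 1.95). LARS2 had 1996 counts (56.5 CPM) in the CCE library and 204 (36.7 CPM) in the control library, 1.54-fold higher (1.33 to 1.79). EARS2 and RARS2 were also above 0 by FPKM, at 2.07 and 1.19, but LARS2 was below, at -0.66.

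Below these came the phenylalanine gene FARS2 at 0.53 (0.23 to 0.83), the proline gene PARS2 at 0.46 (0.01 to 0.95) and the methionine gene MARS2 at 0.45 (0.17 to 0.74). YARS2, AARS2 and HARS2 had 0.38 (0.10 to 0.67), 0.37 (0.05 to 0.70) and 0.25 (0.02 to 0.49). The isoleucine gene IARS2, the most abundant mitochondrial enzyme, had 178 CPM in the CCE library and 172 CPM in the control library, a log2 ratio of 0.04 (-0.05 to 0.14). TARS2 had -0.17 (-0.40 to 0.06).

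Mitochondrial enzymes for tryptophan, asparagine and cysteine had intervals below 0, and of these WARS2 alone was called lower by the 1.5-fold rule. WARS2 had 452 counts (12.8 CPM) in the CCE library and 115 counts (20.7 CPM) in the control library, a log2 ratio of -0.69 (-0.99 to -0.39). NARS2 had 434 and 94 counts, a log2 ratio of -0.46 (-0.79 to -0.12), and CARS2 1647 and 337 counts, -0.38 (-0.55 to -0.21). By FPKM WARS2 and NARS2 were below 0, at -0.31 and -0.20, and CARS2 above, at 0.17. SARS2 was not measured, at 18 counts in the CCE library and 8 in the control library: 48.2% of its exon bases also belong to an overlapping read-through transcript unit annotated in the same direction, so its counts are uncertain.

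**Figure D3:**
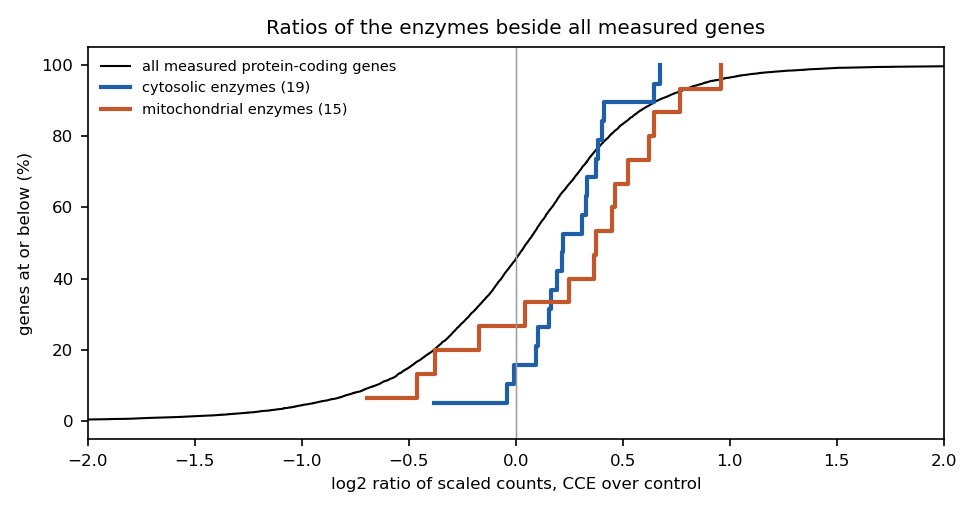
Share of genes (%) at or below each log2 ratio, CCE over control, for 19 cytosolic and 15 mitochondrial enzymes and all measured protein-coding genes (1 library per group). The cytosolic curve is steeper and lies mostly right of 0; the mitochondrial curve runs from -0.69 to 0.96.

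Set against each other, the compartments differed little. The cytosolic median was 0.16 below the mitochondrial one on the log2 scale (difference -0.16), while by summed counts the cytosolic ratio was the higher one. The counting intervals of the enzymes at these medians overlap, at 0.13 to 0.31 (MARS1) and 0.10 to 0.67 (YARS2). Cytosolic enzymes held 188793 counts in the CCE library and 24785 in the control library, a log2 ratio of 0.26 (0.24 to 0.28). Mitochondrial enzymes held 20223 and 2817 counts, a log2 ratio of 0.18 (0.12 to 0.23). The order of the sums was opposite by FPKM, at -0.02 for cytosolic and 0.22 for mitochondrial enzymes. Mitochondrial enzymes took 9.68% of all enzyme counts in the CCE library (9.55% to 9.80%), against 10.2% in the control library (9.85% to 10.6%). IARS2, with nearly the same level in each library, supplied 6288 and 959 of the mitochondrial counts.

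For each amino acid with a cytosolic and a mitochondrial enzyme, 16 pairs had both members measured, with EPRS1 and FARS2 each in 2 of them. The cytosolic ratio was higher in 8 pairs and the mitochondrial ratio in the other 8, and the intervals overlapped in 11. The valine pair was farthest apart, at -0.38 for VARS1 and 0.96 for VARS2. In 4 pairs the cytosolic interval lay above the mitochondrial one: NARS1 over NARS2 (0.37 and -0.46), WARS1 over WARS2 (-0.04 and -0.69), CARS1 over CARS2 (0.19 and -0.38) and IARS1 over IARS2 (0.38 and 0.04). LARS1 and LARS2 were close, at 0.65 and 0.62, as were YARS1 and YARS2, at 0.40 and 0.38, and HARS1 and HARS2, at 0.22 and 0.25.

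**Figure D4:**
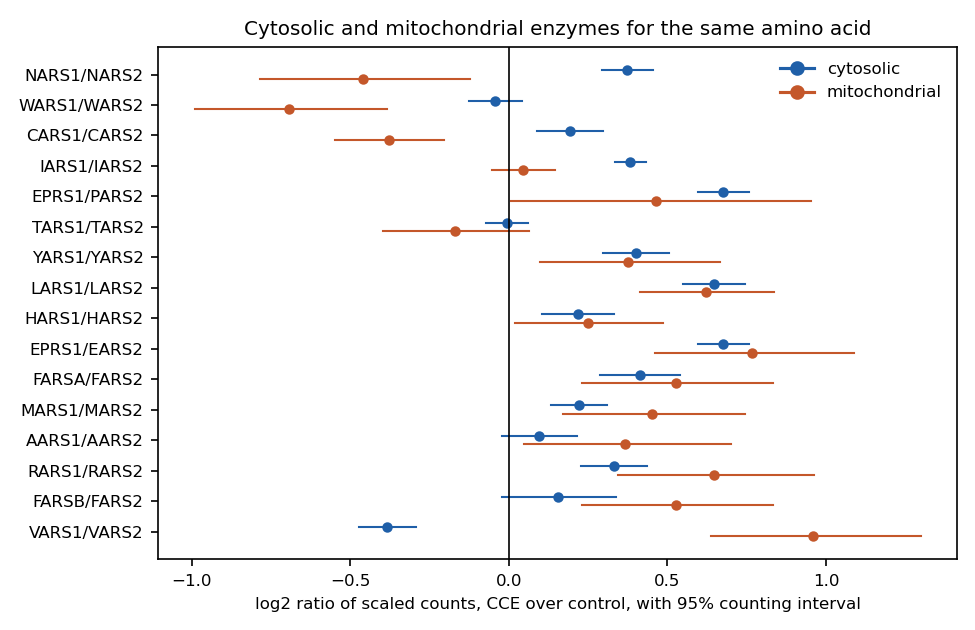
Log2 ratios, CCE over control, of cytosolic and mitochondrial enzymes for the same amino acid, with 95% counting intervals (1 library per group), ordered by the cytosolic minus mitochondrial difference. VARS1 and VARS2 lie farthest apart, and most other intervals overlap.

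Levels per kilobase of the Ensembl canonical transcript put the cytosolic enzymes well above the mitochondrial ones. In 15 of the 16 pairs the cytosolic gene had the higher level per kilobase in each library, by 2.47 to 24.9 times in the CCE library and by 1.67 to 15.6 times in the control library; FARSB against FARS2 was the exception. SARS1 had the highest level, 251 CPM per kilobase in the CCE library and 225 in the control library, followed by GARS1 at 215 and 174 and by IARS1 at 200.3 and 154. At the low end of the measured members, AARS2 had 4.30 CPM per kilobase in the CCE library and 3.34 in the control library, and PARS2 4.53 and 3.28.

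Within the cytosolic set, the 7 enzymes of the multi-synthetase complex (EPRS1, IARS1, KARS1, LARS1, MARS1, QARS1 and RARS1) all had a log2 ratio and an interval above 0, with a median of 0.33 and 2 at least 1.5-fold higher. Of the 12 free enzymes 9 were above 0, with a median of 0.18, and 0 were at least 1.5-fold higher. All of these enzymes have a mean of at least 20 CPM. Of protein-coding genes at that level, 56.5% were above 0, 39.7% had an interval above 0 and 9.17% were called higher. Summed counts gave log2 ratios of 0.40 (0.37 to 0.43) for the complex enzymes and 0.16 (0.13 to 0.18) for the free ones. By FPKM 4 of 7 complex and 5 of 12 free enzymes were above 0, against 42.5% of measured protein-coding genes. The FPKM medians were 0.20 and -0.15. Median exon GC was 42.5% for the complex enzymes and 48.8% for the free ones. With the GC trend removed the medians were 0.25 and 0.12, and EPRS1 and LARS1 fell short of 1.5-fold. The difference between these sets was not tested. The scaffold genes were unequal. AIMP1, whose protein anchors the arginine and glutamine enzymes, had 3795 counts (107 CPM) in the CCE library and 429 (77.2 CPM) in the control library, a log2 ratio of 0.48 (0.33 to 0.62). AIMP2 had 2778 and 434 counts, 0.01 (-0.14 to 0.16), and shares 29.1% of its exon bases with EIF2AK1 on the opposite strand. By FPKM the scaffold genes were at -0.50 and -0.30.

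The 12 enzymes reported to respond to ATF4 had a median log2 ratio of 0.26, with 10 above 0 and 2 at least 1.5-fold higher. The 7 other cytosolic enzymes had a median of 0.22, with 6 above 0 and 0 at least 1.5-fold higher. Shares over all measured protein-coding genes were 54.4% above 0, 11.5% called higher and 10.9% called lower. By catalytic fold, all 5 single-class members called higher were class I (LARS1, VARS2, EARS2, RARS2 and LARS2), and EPRS1 joins a domain of each class. The 18 class I genes had a median of 0.35 and ran from -0.69 to 0.96, with WARS2 also among them. The 15 measured class II genes had a median of 0.25, and 0 were called in either direction. That split of calls held only in part in other settings. With the GC trend removed, the calls higher were again class I (EARS2 and VARS2), but the class II gene NARS2 was called lower. By FPKM 3 class II genes were at least 1.5-fold higher (HARS2, PARS2 and TARS2) and 3 at least 1.5-fold lower (AARS1, FARSA and HARS1). The difference between the classes was not tested.

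Other genes of the pathway were taken from lists drawn up by function. Of the 18 listed uncharged-tRNA sensing and ATF4 target genes, 16 had a log2 ratio above 0, against 54.4% of measured protein-coding genes. The median was 0.28 and 0 were at least 1.5-fold lower, against 10.9%. At least 1.5-fold higher were 3, against 11.5%. The 3 were the cystine transporter gene SLC7A11 (1.61, 1.52 to 1.69), SLC3A2, the shared heavy chain of several such transporters (1.14, 1.08 to 1.20), and ASNS (1.05, 0.93 to 1.17). ASNS had 8074 counts in the CCE library and 612 in the control library. DDIT3, the gene of the stress transcription factor CHOP, followed at 0.57 (0.42 to 0.72), short of 1.5-fold; 31.6% of its exon bases are shared with other genes, and it overlaps MARS1 on the opposite strand. ATF4 itself had 14318 and 2308 counts, -0.04 (-0.10 to 0.03), and EIF2AK4, the gene of GCN2, 0.08 (-0.05 to 0.21). The highest of the 12 ATF4-responsive synthetase genes, EPRS1, had 0.68.

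Mitochondrial translation factors had a median near that of the mitochondrial enzymes. Of 13 genes, 10 had a log2 ratio above 0, against 54.4% of measured protein-coding genes, with a median of 0.34. At least 1.5-fold higher were 3, against 11.5%, and 0 were lower, against 10.9%. GATC and QRSL1, subunits of the amidotransferase that makes mitochondrial glutaminyl-tRNA from the product of EARS2, had 1.01 (0.72 to 1.31) and 0.79 (0.45 to 1.14). Their partner subunit gene GATB had 0.50 (0.22 to 0.80). The initiation factor gene MTIF2 had 0.89 (0.73 to 1.05). GATC shares 47.6% of its exon bases with other genes. EARS2, QRSL1, GATB and GATC were all above 0 by counts, and GATB was at -0.08 by FPKM.

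Factors that use charged tRNA in the cytosol lay on both sides of 0. Among 5 measured genes of cytosolic elongation and EEF1E1, another non-catalytic protein of the complex, the median was 0.02 and 0 were called. Of all measured protein-coding genes 11.5% were called higher and 10.9% lower. EEF1E1 itself had 0.02 (-0.19 to 0.23), and EEF1G was not measured, at 8 counts in the CCE library and 0 in the control library, with 99.7% of its exon bases shared. EEF1A1, the elongation factor that carries aminoacyl-tRNA to the ribosome, had -0.32 (-0.33 to -0.30), EEF1D -0.26 (-0.32 to -0.19), EEF2 0.17 (0.13 to 0.21) and EEF1B2 0.12 (0.06 to 0.18). EEF1A1 has many near-identical pseudogene copies, so its counts are uncertain. Of 6 genes of aminoacyl-tRNA proofreading and tRNA export, 1 was at least 1.5-fold higher, PTRH2, a peptidyl-tRNA hydrolase gene (0.70, 0.58 to 0.82), and the median was 0.26. The tRNA exporter gene XPOT, also known to be raised by ATF4, had 0.53 (0.44 to 0.62), and the D-aminoacyl-tRNA deacylase gene DTD1 -0.35 (-0.47 to -0.22).

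Other genes that interferon-gamma is known to induce, as it does WARS1, had 0 of 7 members at least 1.5-fold higher. The median of these 7 was -0.19. Of all measured protein-coding genes, 11.5% were called higher, 10.9% lower and 4.33% lower at 2-fold. Among the 7, 2 genes passed the rule downwards, by more than 2-fold. These were PSMB9, an immunoproteasome subunit gene (-1.43, -1.71 to -1.14), and IDO1, which degrades tryptophan (-1.60, -2.75 to -0.35, from 21 counts in the CCE library and 10 in the control library). IRF1 and GBP1 had -0.27 (-0.49 to -0.04) and -0.19 (-0.34 to -0.05).

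**Figure D5:**
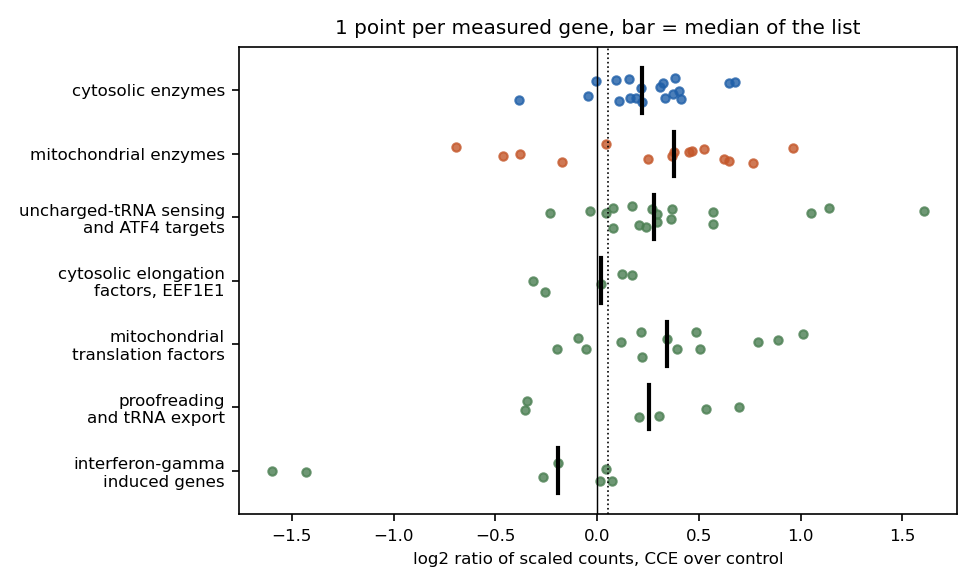
Log2 ratios, CCE over control, of each measured gene in the 2 enzyme sets and 5 related lists (1 library per group); the bar is the median of each list and the dotted line the median of all measured protein-coding genes, 0.05. Cytosolic enzymes, mitochondrial enzymes, ATF4 targets and mitochondrial translation factors have medians from 0.22 to 0.38, and interferon-gamma induced genes one of -0.19.

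Several members share a promoter region with a gene read in the other direction. In 7 pairs a member and a protein-coding neighbour point away from each other, with at most 200 bases between their RefSeq starts. AIMP1 and TBCK are not counted, because at their nearest starts the genes overlap (-133 bases between starts). Their log2 ratios were 0.48 and 0.27. Values are given for 5 of them, without the pairs of AIMP2 and of SARS2, which was not measured. HARS1 and HARS2 have starts 85 bases apart and had log2 ratios of 0.22 and 0.25. KARS1 and TERF2IP, 108 bases apart, had 0.33 (0.22 to 0.44) and 0.40 (0.24 to 0.56). RARS2 and ORC3, 148 bases apart, had 0.65 and 0.31, with intervals that overlap. FARS2 and LYRM4, 57 bases apart, had 0.53 (0.23 to 0.83) and -0.14 (-0.32 to 0.04). WARS1 and WDR25, 158 bases apart, had -0.04 (-0.13 to 0.04) and 0.42 (-0.05 to 0.93). These neighbours were looked up after the ratios were seen.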

How the data were processed

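Both libraries are described per the labels. The authors deposited raw counts per Ensembl gene and FPKM values, 1 row per transcript with repeated gene IDs, here summed per gene. Per the submitters' processing notes, reads were handled with HISAT2 and builds hg19 and GRCh37. How reads were counted, with which strand option and annotation, and what produced the FPKM values were not given in the sources used here. FPKM carry an unknown depth. Records that name no gene, 66.8% of the CCE library and 62.9% of the control library, were left out.

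Symbols, coordinates (GRCh37), exon overlaps and GC content were taken from GENCODE 44 (the GRCh37 lift), where 55665 of 63677 IDs were found; all 37 members matched. Libraries were scaled with TMM in edgeR 4.0.16 (factors 1.01 for CCE and 0.987 for control; R 4.3.3). Ratios have no pseudocount; intervals came from scipy 1.17.1 and were tested on simulated data. Since PCR duplicates repeat 1 molecule, intervals and floors (3 counts) cover counting error only. A gene equal in both libraries would have an interval of 0.809 to 1.25 (fold) at 100 control counts and 0.935 to 1.07 at 1000. No test was run, as each group has 1 library. The GC trend is a lowess curve with a span of 0.3 (statsmodels 0.14.6). Alternatives were other scalings, including DESeq2 1.42.0, FPKM at pseudocounts of 1 and 0.1, count filters, overlapping genes, a 2-fold threshold and the enzymes of both compartments.

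All members are named, with up to 4 genes of each other list by largest absolute log2 ratio and interval excluding 0; EEF1E1, EEF1G, ATF4, EIF2AK4 and the promoter neighbours were added after their values were seen, and some genes of those lists are not reported here by name. Members and lists were chosen with earlier results of these data known.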

Additional observations from a re-analysis of the deposited data

How the results depend on the processing

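Scaling by total counts, upper quartile or DESeq2 left all 36 members within their counting intervals and called 5 or 6 members higher and 1 lower; the summed cytosolic log2 ratio was 0.30 by total counts and 0.22 by upper quartile. By FPKM (pseudocounts 1 and 0.1) 12 members whose counting interval excluded 0 changed sign at each: AARS2 -0.21 and -0.27, AIMP1 -0.50 and -0.52, CARS2 0.17 and 0.18, FARS2 -0.046 and -0.050, FARSA -1.87 and -1.99, HARS1 -0.65 and -0.67, KARS1 -0.026 and -0.027, LARS2 -0.66 and -0.72, MARS1 -0.040 and -0.041, NARS1 -0.11 and -0.12, QARS1 -0.21 and -0.21 and SARS1 -0.18 and -0.18. There the cytosolic median became -0.026 and -0.027, the summed cytosolic ratio -0.017 at each, and 7 members were at least 1.5-fold higher and 5 lower at each (of protein-coding genes 26.7% higher and 29.4% lower at pseudocount 0.1). The summed mitochondrial ratio was 0.22 at each, so the order of the sums reversed; the cause was not tested. With the GC trend removed 2 members were higher and 2 lower, and summed ratios were 0.18 (cytosolic) and 0.11 (mitochondrial). With no count filter 2 were lower, SARS2 being added. Among members that share no exon bases with another gene 3 were higher (EPRS1, RARS2 and VARS2) and 0 lower. The other members called in the main run, LARS1, EARS2, LARS2 and WARS2, share exon bases and were left out. The smaller counts therefore do not mean that any ratio fell. At 2-fold 0 were called. The cytosolic median stayed below the mitochondrial one in every alternative run (difference -0.30 to -0.15). Other scalings move all ratios alike, so they could not change that order or the difference of -0.16. The filter at 5 CPM kept the same members, so it could not change them either. No paired analysis was possible because each group has 1 library. The control library's depth limits the mitochondrial enzymes most, at 43 to 959 counts.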
